A study of Mus musculus with 7 samples.

Results

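Accessible chromatin was described at the genes of 8 members of the TNF superfamily in CD4+ T cells of mice infected with the nematode Nippostrongylus brasiliensis. The members were 5 receptors, Tnfrsf4, Tnfrsf18, Tnfrsf9, Tnfrsf1b and Cd27, and 3 ligands, Tnfsf8, Tnfsf11 and Tnfsf14. They were chosen by name, and a region of the table belonged to a member when it overlapped the GENCODE body of the gene or the 10 kb on either side. This gave 143 of the 113820 regions, with 10 at Tnfrsf4, 12 at Tnfrsf18, 23 at Tnfrsf9, 34 at Tnfrsf1b, 13 at Cd27, 28 at Tnfsf8, 19 at Tnfsf11 and 10 at Tnfsf14. Tnfrsf4 and Tnfrsf18 are neighbours and shared 6 regions, which were counted once among the 143. No filter on low values was applied, so all 143 entered every test.

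TNF superfamily ligands are mostly trimeric membrane proteins, and their receptors recruit TRAF adaptors or death domain proteins to the cytoplasmic side of the membrane, through which many of them activate NF-kB. On T cells several receptors act as costimulators that follow antigen recognition. OX40 (Tnfrsf4), GITR (Tnfrsf18) and TNFR2 (Tnfrsf1b) are abundant on regulatory and activated T cells, the 4-1BB receptor (Tnfrsf9) is induced by activation, and CD27 is present on resting T cells and lost by many effector cells. The ligands are CD30L (Tnfsf8), which binds the receptor CD30, RANKL (Tnfsf11), a factor of osteoclast formation and of dendritic cell survival, and LIGHT (Tnfsf14), which binds HVEM and the lymphotoxin beta receptor.

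ATAC-seq measures open chromatin by the number of transposase insertions in a region. All animals were C57BL/6 reporter mice infected with 500 L3 larvae, and cells were sorted 8 days later, with 50000 cells in each library. LN IL-4+ cells (n = 2) were CD4+ T cells positive for GFP and taken from the lymph node that drains the lung, the mediastinal one. Lung IL-4+ cells (n = 3) were sorted in the same way from lung tissue, and both came from IL-4-4get GFP reporter mice. Lungs were digested with enzymes and lymph nodes were dissociated mechanically, so effects of tissue and of dissociation cannot be told apart. Lung IFNγ+ cells (n = 2) were YFP+ CD4+ T cells from the lung of IFN-gamma-Great YFP reporter mice. The reporter strain therefore differed with the cytokine, and no age of the mice was given. A reporter marks cells in which the cytokine gene is or was active, and not cells that secrete the protein at the time of sorting. The libraries are numbered replicates. The labels do not say whether they came from separate mice, while the study's text describes them as different mice of 1 experiment, so the p-values measure the spread between these libraries only.

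The libraries held at least 14005923 to 91681969 insertions, rebuilt from the tied values of the table as lower bounds. They fell into 2 classes by the spread of insertions over the regions. The narrow class held 3 libraries, replicate 1 of LN IL-4+ cells with replicates 2 and 3 of lung IL-4+ cells, whose quartiles lay 1.65 to 1.74 log2 units apart. The wide class held 4, replicate 2 of LN IL-4+ cells, replicate 1 of lung IL-4+ cells and the pair of IFNγ+ libraries, with quartiles 2.89 to 3.07 apart. Both IFNγ+ libraries were wide, so values within a class are given beside the results. Of the CD4 T cell markers, 7 of 7 had a region at the gene start with a mean density of at least 5 normalized insertions per kb in every population. Of the B cell markers, 0 of 4 had a region within 1 kb of the start. Csf1r, Lyz2, Sftpc, Cdh5 and Tek also had no region there, while Itgax, Cd68, Epcam, Cdh1, Pecam1 and Cd8b1 had one. The sort had excluded myeloid, B, NK and CD8 T cells by surface markers. The Ifng start region read 48.5 and 51.7 normalized insertions per kb in the IFNγ+ libraries, 11.3 to 16.2 in lung IL-4+ and 1.44 and 2.54 in LN IL-4+ libraries. In this order Tbx21, the other Th1 marker, read 5.22 and 5.39, 3.25 to 8.22, and 7.96 and 2.59, all overlapping. The 4 Th2 markers summed to 31.3 to 35.4, 57.7 to 67.0, and 37.4 to 39.9, though Il4 alone was highest in LN IL-4+ libraries. The Tfh marker Cxcr5 was highest in LN IL-4+ libraries. Bcl6, the other one, was highest in IFNγ+ libraries (61.8 and 64.9, against 43.4 to 53.5, and 51.5 and 48.4). Chromatin of a bulk sample does not separate the share of cells that are open at a region from the openness of each cell.

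The 5 windows below are shown because they hold 4 of the 6 called regions and the Tnfrsf9 region that rose most steadily across libraries. Each is the middle 300 bases of its region on the plus strand of GRCm38/mm10, read from the RefSeq copy of that assembly, and capitals mark matches to 8 motifs searched on both strands. A match on the minus strand appears as its reverse complement.
Tnfrsf18, 4710 bp downstream of the start, chr4:156030725-156031024: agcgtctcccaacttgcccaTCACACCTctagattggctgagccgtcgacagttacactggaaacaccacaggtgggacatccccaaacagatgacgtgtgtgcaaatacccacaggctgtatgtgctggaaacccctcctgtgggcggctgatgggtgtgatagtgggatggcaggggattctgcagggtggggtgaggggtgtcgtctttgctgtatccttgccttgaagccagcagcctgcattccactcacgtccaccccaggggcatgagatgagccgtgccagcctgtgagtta
Tnfrsf9, 10234 bp downstream of the start, chr4:150924646-150924945: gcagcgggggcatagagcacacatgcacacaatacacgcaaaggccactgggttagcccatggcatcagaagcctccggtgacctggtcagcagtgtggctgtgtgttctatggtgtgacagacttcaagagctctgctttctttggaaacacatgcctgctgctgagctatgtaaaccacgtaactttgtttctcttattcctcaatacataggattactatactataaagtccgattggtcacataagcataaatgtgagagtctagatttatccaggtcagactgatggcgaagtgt
Tnfrsf1b, 3158 bp upstream of the start, chr4:145249878-145250177: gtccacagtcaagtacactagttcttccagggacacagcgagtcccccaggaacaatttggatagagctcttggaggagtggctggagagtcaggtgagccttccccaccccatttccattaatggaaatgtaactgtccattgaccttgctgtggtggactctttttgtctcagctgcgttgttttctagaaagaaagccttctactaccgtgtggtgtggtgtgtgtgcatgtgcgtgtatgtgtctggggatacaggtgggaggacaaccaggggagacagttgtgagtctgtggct
Tnfrsf1b, 37318 bp downstream of the start, chr4:145209402-145209701: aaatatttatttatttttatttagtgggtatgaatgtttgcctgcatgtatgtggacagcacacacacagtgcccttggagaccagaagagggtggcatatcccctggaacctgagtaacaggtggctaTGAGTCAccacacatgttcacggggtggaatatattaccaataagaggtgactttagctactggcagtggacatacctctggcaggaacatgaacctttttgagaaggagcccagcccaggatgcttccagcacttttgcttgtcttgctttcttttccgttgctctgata
Tnfsf8, 1272 bp upstream of the start, chr4:63862469-63862768: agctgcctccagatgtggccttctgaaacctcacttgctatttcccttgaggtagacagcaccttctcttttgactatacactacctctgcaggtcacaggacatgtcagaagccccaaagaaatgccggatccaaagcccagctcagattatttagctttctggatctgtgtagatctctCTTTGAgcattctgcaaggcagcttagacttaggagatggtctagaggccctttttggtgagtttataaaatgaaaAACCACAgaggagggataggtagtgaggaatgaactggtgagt

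The Tnfrsf18 window held 1 T-box match, the downstream Tnfrsf1b window 1 AP-1 match and the Tnfsf8 window 1 Runx and 1 TCF match. The Tnfrsf9 window and the upstream Tnfrsf1b window held none of the 8 motifs, which says only that these letters are not in the 300 bases. Over the 143 member regions, the middle 300 bases held the AP-1 motif TGANTCA, bound by factors of activated T cells, in 22 (15.4%), against 13.0% of all 113820 regions. The Runx motif AACCACA was found in 11.2% of member regions and 11% of all regions. The T-box motif AGGTGTGA, of the family of T-bet, was found in 2.8% and 1.68% of these. The NFAT motif TGGAAAA was found in 6.99% of member regions and 7.16% of all regions. The TCF motif TCAAAG was found in 19.6% of member regions and 21.6% of all regions. The GATA motif AGATAA, of the family of GATA3, was found in 10.5% of member regions and 15.2% of all regions. The ETS motif AGGAAGT was found in 8.39% of member regions and 13.2% of all regions. The NF-kB consensus was in a single member region, 0.699%, and in 2.28% of all regions. The motifs of different families can overlap each other. By position, 61 member regions lay in introns, 33 between genes, 28 within 1 kb of a transcription start and 21 in exons.

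Between lung IL-4+ and lung IFNγ+ cells, which differ in cytokine and reporter within 1 tissue, 0 of the 143 regions passed limma's test at an adjusted p under 0.05 and a 3-fold change in either direction. Over all regions, 0.108% were called higher in lung IL-4+ and 0.387% higher in lung IFNγ+ cells. At any fold the members were also at 0, with 0.151% and 0.513% of all regions. At an unadjusted p under 0.05, 25 member regions were higher and 4 lower in lung IL-4+ cells, together 29 of 143, where 14.8% of all regions had such a p. With voom on the rebuilt counts 2 were called, both higher in lung IL-4+ cells, 1 at Tnfsf11 and 1 at Tnfsf8. With 2 populations at a time or with library weights 2 were called, both at Tnfsf11. The share of all regions called is not given for these settings. The libraries of both populations did not overlap at 53 regions (37.1%) that were higher in lung IL-4+ cells and at 15 (10.5%) that were higher in IFNγ+ cells, while over all regions 19.4% and 21.2% were apart in these directions. The median log2 fold change of the members was 0.36, and that of all regions -0.01.

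Lung and LN IL-4+ cells share reporter and cytokine and differ in tissue and its dissociation. Between them, 1 member region was called higher in the lung and 0 higher in the lymph node. Over all regions these were 1.05% and 0.695%. At any fold, 7 member regions rose and 1 fell in the lung, where all regions gave 1.88% and 1.05%. At an unadjusted p under 0.05, 29 regions lay above and 6 below the lymph node, together 35 of 143, where 16.2% of all regions had such a p. The libraries were apart at 44 regions (30.8%) higher in the lung and 9 (6.29%) higher in the lymph node, against 13.6% and 14.3% of all regions. The median log2 fold change was 0.46, and -0.03 over all regions.

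IFNγ+ cells of the lung and LN IL-4+ cells differ in tissue, dissociation, cytokine and reporter strain at once. Between them, 3 member regions were called higher in IFNγ+ and 2 higher in LN IL-4+ cells. Over all regions 2.17% and 0.862% were called. At any fold the counts were 6 and 2, against 3.03% and 1.16%. At an unadjusted p under 0.05, 17 member regions were higher and 9 lower in IFNγ+ cells. Together these were 26 of 143, where 18.5% of all regions had such a p. The libraries were apart at 45 regions (31.5%) higher in IFNγ+ and 32 (22.4%) higher in LN IL-4+ cells, against 26.5% and 27.2%. The median was 0.04, and -0.03 over all regions. The 3 comparisons share libraries, and regions of 1 locus are neighbours, so neither the comparisons nor the regions are independent. Leaving out either IFNγ+ library left 0 member regions called between IFNγ+ and LN IL-4+ cells.

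**Figure D1:**
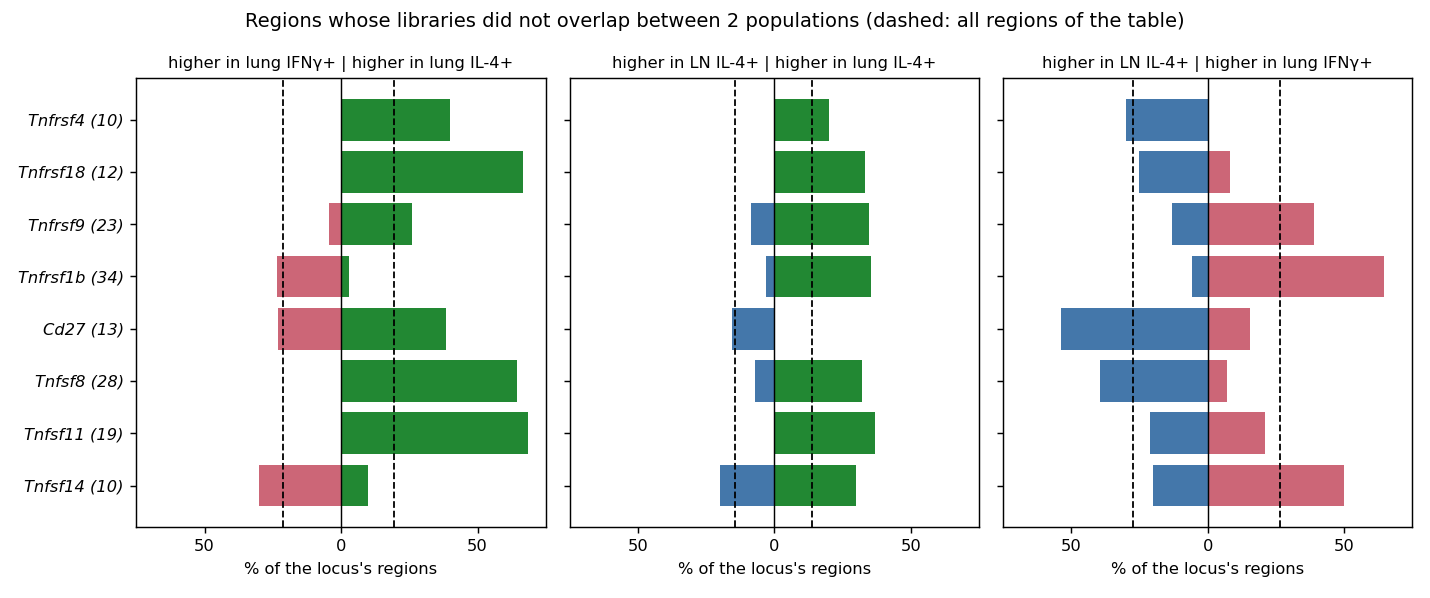
Share of each locus's regions (%, horizontal axis, drawn to either side of 0) whose libraries did not overlap between 2 populations, with the number of regions beside each gene and dashed lines at the share of all 113820 regions. Tnfrsf18, Tnfsf8 and Tnfsf11 reached 66.7%, 64.3% and 68.4% of regions higher in lung IL-4+ than in IFNγ+ cells, and Tnfrsf1b 64.7% higher in IFNγ+ than in LN IL-4+ cells.

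Adding up the normalized insertions in the regions of a locus gave 1 value per gene and library. Sums depend on how many regions a locus has and are compared between libraries only, never between genes. Over 17044 protein-coding genes, limma called 0.0528% of loci between lung IL-4+ and IFNγ+, 1.08% between lung and LN IL-4+ and 2.14% between IFNγ+ and LN IL-4+ cells at an adjusted p under 0.05. In the same fits 0 of the 8 member loci passed in any of the 3 comparisons, and 4, 5 and 4 had an unadjusted p under 0.05, as did 14.9%, 13.9% and 16.3% of all loci. With a term for the spread class of the libraries 2, 5 and 4 member loci passed, where 2.85%, 15.3% and 11.8% of all loci passed. The 2 were Tnfsf8 and Tnfsf11. The 5 were Tnfrsf4, Tnfrsf18, Tnfrsf9, Tnfrsf1b and Tnfsf11, and the 4 were Tnfrsf9, Tnfrsf1b, Tnfsf8 and Tnfsf11. The median log2 fold change of all loci was -0.04, -0.09 and -0.06 in these comparisons.

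**Figure D2:**
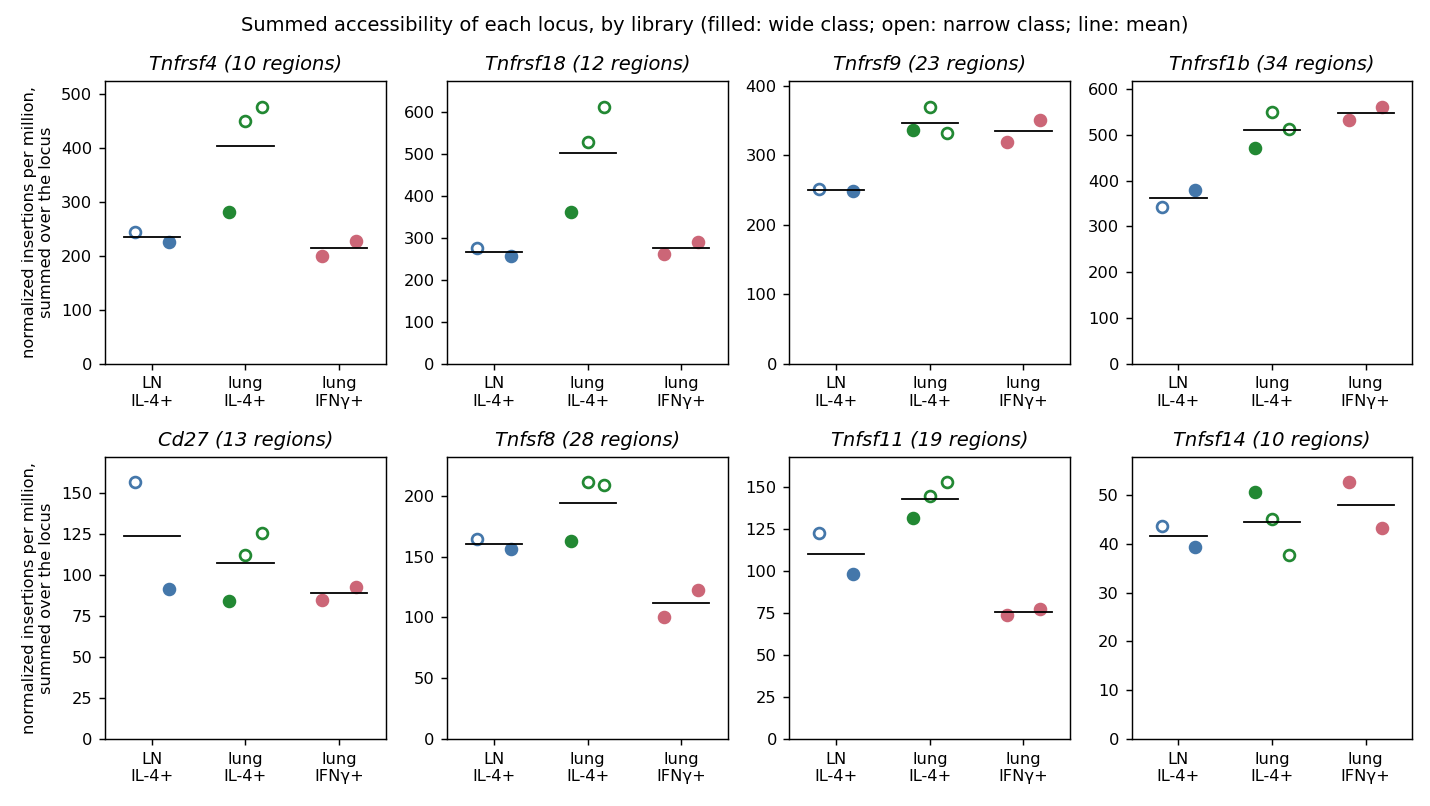
Normalized insertions summed over each locus (vertical axis, from 0, a scale of its own for each gene), 1 point per library, filled for wide and open for narrow libraries, with a line at the mean of each population. Both lung populations lay above LN IL-4+ cells at Tnfrsf9 and Tnfrsf1b, while at Tnfrsf4, Tnfrsf18, Tnfsf8 and Tnfsf11 every lung IL-4+ library lay above both IFNγ+ libraries.

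The neighbours Tnfrsf4 (chr4:156013843-156016612, plus strand) and Tnfrsf18 (chr4:156026164-156028895, plus strand), which encode OX40 and GITR, had their highest sums in lung IL-4+ cells. The Tnfrsf4 locus read 243.7 and 226.2 normalized insertions in the LN IL-4+ libraries, 282.3, 451.0 and 477.2 in lung IL-4+ and 200.6 and 227.5 in IFNγ+ libraries. The Tnfrsf18 locus read 276.6 and 256.5 in LN IL-4+, 362.2, 529.8 and 613.3 in lung IL-4+ and 261.3 and 289.7 in IFNγ+ libraries. At both loci all 3 lung IL-4+ libraries lay above the other 4, and the wide library, replicate 1, was the lowest of the 3. The log2 fold change of Tnfrsf18 in lung against LN IL-4+ cells was 0.88 (SE 0.21, adjusted p = 0.108, limma), and against IFNγ+ cells 0.83 (SE 0.21, adjusted p = 0.188). For Tnfrsf4 it was 0.74 (SE 0.22, adjusted p = 0.185) and 0.88 (SE 0.22, adjusted p = 0.186). Within the classes, the Tnfrsf18 difference between lung and LN IL-4+ cells was 0.50 in the wide and 1.04 in the narrow libraries, and against IFNγ+ cells 0.40 in the wide ones. For Tnfrsf4 these were 0.32, 0.93 and 0.40. Without lung IL-4+ replicate 1 both loci passed against LN IL-4+ cells, Tnfrsf4 with a log2 fold change of 0.98 (adjusted p = 0.0298) and Tnfrsf18 with 1.1 (adjusted p = 0.0290). With the spread class term they passed in this comparison too (adjusted p = 0.00488 for Tnfrsf4 and 0.00145 for Tnfrsf18). Between IFNγ+ and LN IL-4+ cells the loci differed by -0.14 (SE 0.24) and 0.05 (SE 0.23), with adjusted p = 0.777 and 0.928, and the libraries overlapped.

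The called region of this pair of genes was the one at chr4:156030540-156031209, between genes and 4710 bp downstream of the Tnfrsf18 start. Its log2 density, in normalized insertions per kb, was 4.26 and 5.70 in LN IL-4+, 6.77, 6.61 and 6.82 in lung IL-4+ and 6.31 and 6.38 in IFNγ+ libraries, from rebuilt counts of 309 to 6013. Both lung populations lay above both LN libraries, which themselves differed by more than the lung libraries did. The rise from LN to lung IL-4+ cells was 1.76 on the log2 scale (SE 0.32, adjusted p = 0.0190), over the 3-fold limit, and that to IFNγ+ cells 1.37 (SE 0.35, adjusted p = 0.0580), which missed the threshold. Within the classes, lung minus LN IL-4+ cells was 1.07 in the wide and 2.46 in the narrow libraries. The adjusted p rose to 0.0938 without lung IL-4+ replicate 2 and to 0.0735 without replicate 3, and to 0.0919 with voom on the rebuilt counts. Without replicate 1 of the LN IL-4+ cells the rise was 1.04 (adjusted p = 0.0129), under the 3-fold limit. Without LN IL-4+ replicate 2 it was 2.47 (adjusted p = 0.000132), and that to IFNγ+ cells, 2.08 (adjusted p = 0.000216), was then called too. The region had the highest mean log2 density of the Tnfrsf18 regions.

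A region of 1938 bp that Tnfrsf4 and Tnfrsf18 shared, at chr4:156020646-156022583 between the 2 genes, was the most accessible per kb of the Tnfrsf4 locus. It read 5.25 and 5.57 in LN IL-4+, 6.00, 6.10 and 6.15 in lung IL-4+ and 5.43 and 5.52 in IFNγ+ libraries. All lung IL-4+ libraries were above the other 4, whose 2 populations overlapped. Lung against LN IL-4+ cells gave 0.67 (SE 0.16, 1.59-fold, adjusted p = 0.0495), and lung IL-4+ against IFNγ+ cells 0.61 (SE 0.16, adjusted p = 0.124). The first passed narrowly at any fold, and in 4 of 16 alternatives. It was lost without LN IL-4+ replicate 1, without any single lung IL-4+ library and without either IFNγ+ library, with adjusted p between 0.0542 and 0.186.

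The regions at the starts of both genes also had their highest means in lung IL-4+ cells, without passing the test. Their lowest means were in IFNγ+ cells. The Tnfrsf4 start lay in a merged region of 9075 bp that also holds exons of Sdf4, so its value belongs to both genes, and the far end of the Tnfrsf18 flank likewise takes in regions of Ttll10. Its log2 density was 3.20 and 2.68 in LN IL-4+, 3.00, 4.15 and 4.39 in lung IL-4+ and 2.51 and 2.64 in IFNγ+ libraries. Lung IL-4+ lay above IFNγ+ cells by 1.27 (SE 0.39, adjusted p = 0.192), the largest difference of the Tnfrsf4 locus in that comparison, and by 0.42 within the wide class. Without lung IL-4+ replicate 1 this difference was 1.70 (adjusted p = 0.0335). The Tnfrsf18 start region of 2317 bp read 3.69 and 2.94, then 3.13, 4.33 and 4.40, and 2.94 and 3.27. Here the wide lung IL-4+ library lay within the range of the other populations, and the difference from IFNγ+ cells was 0.85 (adjusted p = 0.345) overall and 0.02 within the wide class. Of the 12 Tnfrsf18 regions, 12 had a higher mean in lung IL-4+ than in IFNγ+ cells and 8 (66.7%) were apart. Of the 10 Tnfrsf4 regions 9 were higher and 4 (40.0%) apart, and 6 regions are in both counts. Of all regions 19.4% were apart in this direction, and their median log2 fold change was -0.01.

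Tnfrsf9 (chr4:150914562-150946102, plus strand), which encodes 4-1BB, had a higher sum in every lung library than in both LN libraries, without passing the test, and a region of its flank was called in the other direction. The sum was 251.9 and 249.5 in LN IL-4+, 336.5, 370.2 and 332.9 in lung IL-4+ and 319.7 and 351.2 in IFNγ+ libraries. The lung populations overlapped each other. The log2 fold changes against LN IL-4+ cells were 0.47 (SE 0.11, adjusted p = 0.101) for lung IL-4+ and 0.42 (SE 0.12, adjusted p = 0.127) for IFNγ+ cells, and neither passed over all genes. Lung IL-4+ and IFNγ+ cells differed by 0.05 (SE 0.11, adjusted p = 0.804). Within the classes the lung minus LN IL-4+ difference was 0.43 and 0.48, in the wide and the narrow libraries. Over the gene body alone it was 0.60 (adjusted p = 0.0442). With the spread class term the locus passed against LN IL-4+ cells in lung IL-4+ (adjusted p = 0.00334) and in IFNγ+ cells (adjusted p = 0.0114).

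The region that carried this difference best lay at chr4:150923985-150925607, 10234 bp downstream of the first start, over an exon and an inner start of Tnfrsf9 and within the overlapping gene Camta1. Its log2 density was 4.12 and 4.04 in LN IL-4+, 5.57, 5.76 and 5.48 in lung IL-4+ and 5.51 and 5.62 in IFNγ+ libraries, from rebuilt counts of 622 to 7453. The 5 lung libraries lay close together and all above both LN libraries. It rose 2.87-fold in lung IL-4+ (log2 fold change 1.52, SE 0.16, adjusted p = 0.00295) and 2.8-fold in IFNγ+ cells (1.48, SE 0.18, adjusted p = 0.00293), both just under the 3-fold limit, so neither counts among the called regions. The rise was 1.53 and 1.5 within the wide and narrow classes for lung IL-4+ cells, and 1.52 for IFNγ+ cells within the wide class. Lung IL-4+ against LN IL-4+ kept an adjusted p under 0.05 in 14 of 16 alternatives, with the exceptions of no variance trend (0.0709) and the replicate block (0.112). IFNγ+ against LN IL-4+ kept it in 13 of 16 and lost it without either IFNγ+ library (0.0658 and 0.0676). Of the 16 results of member regions with an adjusted p under 0.05, the rise of this region in lung IL-4+ cells was the one that passed without each of the 7 libraries in turn.

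At the first start itself, the region shared with the promoter of Park7 (chr4:150914278-150915807) read 5.76 and 5.90 in LN IL-4+, 6.26, 6.35 and 6.04 in lung IL-4+ and 6.08 and 6.29 in IFNγ+ libraries. It was the most accessible region of the locus per kb and differed from LN IL-4+ cells by 0.38 in lung IL-4+ (adjusted p = 0.248) and by 0.35 in IFNγ+ cells (adjusted p = 0.30). A region of 812 bp that lay 3108 bp downstream of the start rose 2.15-fold from LN to lung IL-4+ cells (1.11, SE 0.21, adjusted p = 0.0232). It read 3.36 and 3.83 in LN IL-4+ against 4.68, 4.71 and 4.71 in lung IL-4+ and 4.25 and 4.58 in IFNγ+ libraries. It passed in 7 of 16 alternatives and was lost without replicate 1 of the LN IL-4+ cells, lung IL-4+ replicates 2 or 3, or either IFNγ+ library, with adjusted p from 0.0567 to 0.113.

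In the other direction, a region at chr4:150951020-150951586 in an intron of Camta1, downstream of Tnfrsf9 and within the 10 kb flank, was called lower in IFNγ+ than in LN IL-4+ cells. It read 3.74 and 3.19 in LN IL-4+, 2.09, 2.07 and 2.62 in lung IL-4+ and 1.85 and 1.85 in IFNγ+ libraries. The log2 fold change was -1.62 (SE 0.36, adjusted p = 0.0346), 3.07-fold lower, and lung IL-4+ cells lay in between at -1.20 (adjusted p = 0.0868). It passed at any fold in 9 of 16 alternatives and was lost without replicate 1 of the LN IL-4+ cells (0.164), lung IL-4+ replicate 2 (0.0632) or either IFNγ+ library (0.295 and 0.267), and with 2 populations at a time (0.0561). It passed but fell under the 3-fold limit with the spread class term (-1.43, adjusted p = 0.0171), median centring (-1.56, adjusted p = 0.0386) and a pseudocount of 1 (-1.39, adjusted p = 0.0304).

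Tnfrsf1b (chr4:145213463-145246870, minus strand), which encodes TNFR2, had the most regions, and its sum was higher in every lung library than in both LN libraries, without passing the test. The sum was 342.7 and 380.3 in LN IL-4+, 470.4, 549.9 and 512.2 in lung IL-4+ and 532.7 and 561.2 in IFNγ+ libraries. The lung populations overlapped. The log2 fold change against LN IL-4+ cells was 0.60 in IFNγ+ (SE 0.13, adjusted p = 0.0605) and 0.50 in lung IL-4+ cells (SE 0.12, adjusted p = 0.106). With the spread class term both passed (adjusted p = 0.00337 in IFNγ+ and 0.00408 in lung IL-4+ cells). The first also passed without lung IL-4+ replicate 1 (0.60, adjusted p = 0.0403), and without LN IL-4+ replicate 2 it was 0.67. Within the wide class it was 0.52, and lung minus LN IL-4+ cells was 0.31 in the wide and 0.63 in the narrow libraries. Of the 34 regions, 29 had a higher mean in IFNγ+ than in LN IL-4+ cells and 22 (64.7%) were apart. Of all regions 26.5% were apart in this direction, and their median log2 fold change was -0.03.

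The Tnfrsf1b regions at 3158 bp upstream and 37318 bp downstream of the start were called between IFNγ+ and LN IL-4+ cells. The upstream one, at chr4:145249656-145250400, read 3.67 and 4.47 in LN IL-4+, 5.82, 5.40 and 5.51 in lung IL-4+ and 5.84 and 5.78 in IFNγ+ libraries. All lung libraries lay above both LN libraries. It rose 3.34-fold in IFNγ+ (1.74, SE 0.26, adjusted p = 0.00604) and 2.84-fold in lung IL-4+ cells (1.51, SE 0.23, adjusted p = 0.0105), the second under the fold limit. Within the wide class the rises were 1.35 in each, and for lung IL-4+ cells 1.79 within the narrow class. In IFNγ+ cells it was lost without either IFNγ+ library (0.0940 and 0.0713), and in lung IL-4+ cells without replicate 2 (0.0579). The rise in IFNγ+ cells fell under the 3-fold limit without replicate 1 of the LN IL-4+ cells (1.35, adjusted p = 0.0109) and with the spread class term (1.47, adjusted p = 0.000301).

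The downstream one, at chr4:145209321-145209783, beyond the 3′ end of the gene, read 1.85 and 1.88 in LN IL-4+, 3.45, 2.68 and 2.49 in lung IL-4+ and 3.64 and 3.67 in IFNγ+ libraries. The 3 populations did not overlap and lay in this order. IFNγ+ against LN IL-4+ cells gave 1.79 (SE 0.36, 3.45-fold, adjusted p = 0.0230), lung against LN IL-4+ cells 1.01 (adjusted p = 0.147) and lung IL-4+ against IFNγ+ cells -0.78 (adjusted p = 0.315), so neither difference between lung IL-4+ cells and their neighbours in this order passed the test. It rests on few insertions, 55 to 513 per library, and was lost without replicate 1 of the LN IL-4+ cells (0.0596), lung IL-4+ replicate 2 (0.0504) or either IFNγ+ library (0.246 and 0.228). It was under the 3-fold limit with the spread class term (1.53, adjusted p = 0.00836) and with a pseudocount of 1 (1.55, adjusted p = 0.0213).

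A pair of wider regions inside Tnfrsf1b passed at any fold in both lung populations. One of 4752 bp over exons, 26186 bp from the start, read 3.14 and 2.29 in LN IL-4+, 3.88, 4.24 and 4.05 in lung IL-4+ and 4.07 and 4.05 in IFNγ+ libraries, with adjusted p = 0.0300 and 0.0346. One of 2353 bp in an intron, 6704 bp from the start, read 3.59 and 3.89, then 4.42, 4.97 and 4.6, and 4.70 and 4.86, with adjusted p = 0.0498 and 0.0364. In both, every lung library lay above both LN libraries. Each of these 4 results was lost without either IFNγ+ library or lung IL-4+ replicates 2 or 3. The first was also lost without LN IL-4+ replicate 2 and the second without LN IL-4+ replicate 1. The region with the highest mean log2 density, at chr4:145235931-145236534 in an intron, read 6.19 and 6.91 in LN IL-4+, 6.42, 6.35 and 6.31 in lung IL-4+ and 6.80 and 6.95 in IFNγ+ libraries, so the LN IL-4+ libraries overlapped both lung populations. Lung IL-4+ lay below IFNγ+ cells there (-0.51, adjusted p = 0.276), and no test passed. The start region of 3406 bp read 3.56 and 3.53, then 3.78, 4.18 and 4.10, and 3.75 and 3.99, and differed from LN IL-4+ cells by 0.47 (adjusted p = 0.321) in lung IL-4+ and 0.33 (adjusted p = 0.503) in IFNγ+ cells.

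The regulatory T cell markers were read beside these receptors because OX40, GITR and TNFR2 are abundant on such cells. The start regions of the 4 markers Foxp3, Ikzf2, Il2ra and Ctla4 summed to 78.6 and 85.2 normalized insertions per kb in LN IL-4+, 101 to 107 in lung IL-4+ and 111 to 120 in IFNγ+ libraries. The defining marker Foxp3 read 35.6 and 28.4 in LN IL-4+, 28.9, 30.5 and 28.4 in lung IL-4+ and 27.2 and 28.0 in IFNγ+ libraries, so the IL-4+ populations overlapped and both IFNγ+ libraries lay just below them. Ikzf2 read 29.1 and 32.9 in LN IL-4+, 26.0, 15.8 and 19.0 in lung IL-4+ and 31.1 and 34.3 in IFNγ+ libraries, lowest in lung IL-4+ cells. Higher values in the lung were found at Il2ra, which is also an activation gene, at 11.3 and 19.9 in LN IL-4+ against 38.9 to 50.7 in lung libraries, and at Ctla4, at 2.58 and 4.05 against 6.35 to 13.9. The part of these cells in the receptor results was not tested.

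**Figure D3:**
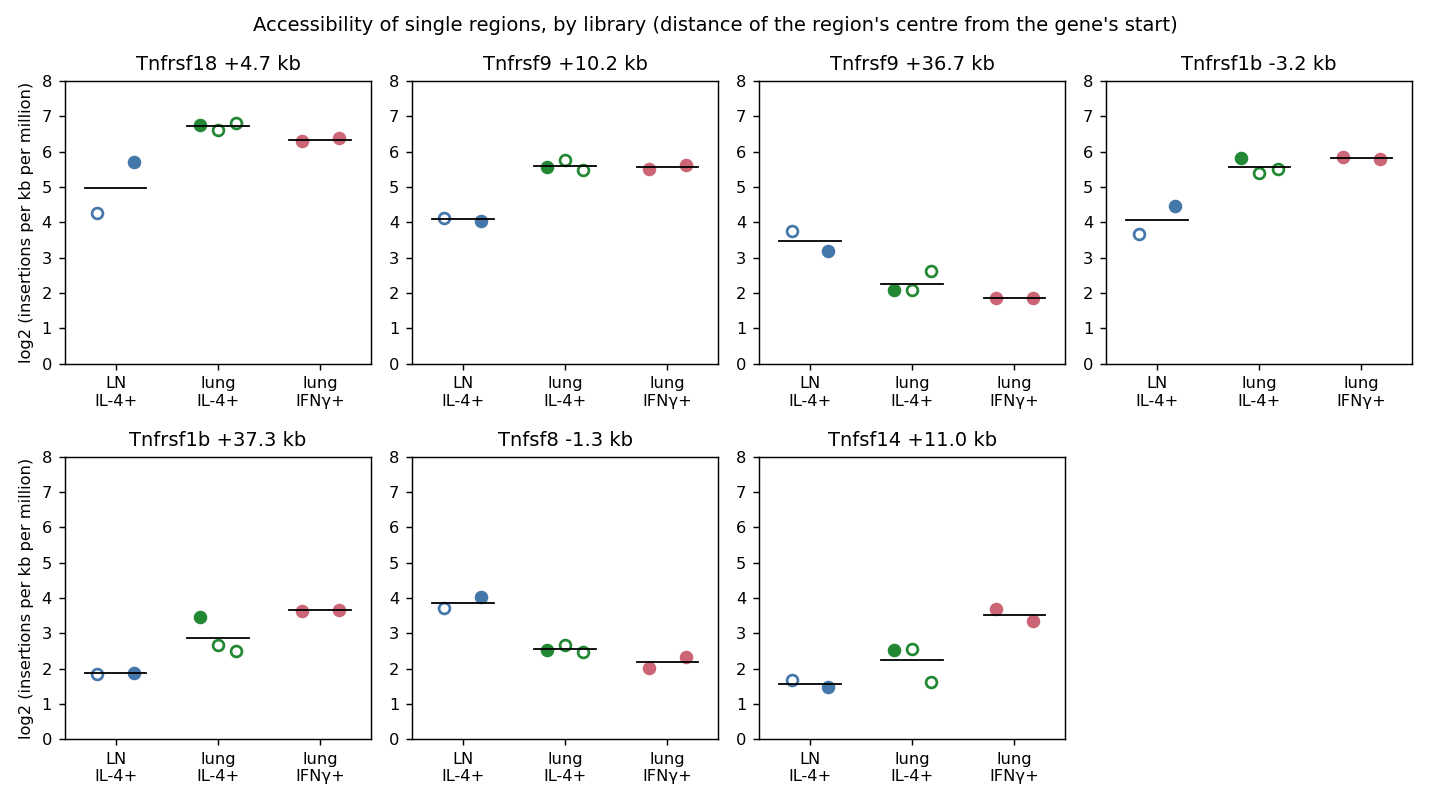
Log2 density (normalized insertions per kb, vertical axis) of the 6 called regions and of the Tnfrsf9 region that missed the fold limit, 1 point per library, filled for wide and open for narrow libraries, with lines at the population means. In 6 of the 7 panels every lung library lies on the same side of both LN libraries, and in the Tnfsf14 panel the IL-4+ populations overlap and the IFNγ+ libraries lie highest.

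Cd27 (chr6:125232622-125237010, minus strand) was the member whose values leaned to the lymph node. Its sum was 156.4 and 91.5 in LN IL-4+, 84.4, 112.5 and 125.8 in lung IL-4+ and 85.0 and 92.9 in IFNγ+ libraries. The LN libraries differed from each other by more than the populations did, and all 3 populations overlapped. IFNγ+ against LN IL-4+ cells gave -0.43 (SE 0.27, adjusted p = 0.449) and lung against LN IL-4+ cells -0.17 (SE 0.25, adjusted p = 0.819). These were -0.04 and -0.12 within the wide class. Without LN IL-4+ replicate 2 the first was -0.82 (adjusted p = 0.0379), and without LN IL-4+ replicate 1 the second turned to 0.21, so the direction rested on 1 library. The region at the Cd27 start read 4.08 and 3.34 in LN IL-4+, 2.65, 3.00 and 3.70 in lung IL-4+ and 2.70 and 2.82 in IFNγ+ libraries, and IFNγ+ lay below LN IL-4+ cells by -0.95 (adjusted p = 0.213). Of the 13 regions, 7 (53.8%) were apart with LN IL-4+ above IFNγ+ cells and 2 (15.4%) the other way, against 27.2% and 26.5% of all regions. The largest difference, at an intron of the overlapping gene Vamp1, was -1.44 (adjusted p = 0.119) for IFNγ+ and -1.37 (adjusted p = 0.123) for lung IL-4+ cells, from 2.93 and 2.32 in LN IL-4+ to between 1.11 and 1.55 in the lung libraries. No Cd27 region passed the test in any comparison.

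Among the ligands, Tnfsf8 (chr4:63831308-63861347, minus strand), which encodes CD30L, had its lowest sum in IFNγ+ cells. It read 164.3 and 156.2 in LN IL-4+, 163.0, 210.8 and 208.9 in lung IL-4+ and 100.6 and 122.8 in IFNγ+ libraries. Every IL-4+ library, from either tissue, lay above both IFNγ+ libraries, and lung and LN IL-4+ cells overlapped. Lung IL-4+ against IFNγ+ cells gave 0.80 (SE 0.15, 1.74-fold, adjusted p = 0.115) and IFNγ+ against LN IL-4+ cells -0.53 (SE 0.17, adjusted p = 0.175). Lung and LN IL-4+ cells differed by 0.27 (SE 0.15, adjusted p = 0.483). Within the wide class the first 2 differences were 0.55 and -0.49. With the term for the spread class they passed, at 0.64 (adjusted p = 0.0212) and -0.41 (adjusted p = 0.0498). Of the 28 regions, 26 had a higher mean in lung IL-4+ than in IFNγ+ cells, 18 (64.3%) were apart and 0 were apart in the other direction. Of all regions 19.4% and 21.2% were apart in these directions, and their median log2 fold change was -0.01. Of the 28 Tnfsf8 regions, 11 reached a mean density of at least 5 normalized insertions per kb in any population.

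The called Tnfsf8 region fell from LN IL-4+ to IFNγ+ cells, as its locus sum did. The region also fell in lung IL-4+ cells, where the locus sum did not. At chr4:63861807-63863431, upstream of the gene and within 1 kb of its start at the near edge, it read 3.72 and 4.02 in LN IL-4+, 2.54, 2.67 and 2.48 in lung IL-4+ and 2.03 and 2.33 in IFNγ+ libraries. Both LN libraries lay above all 5 lung libraries. It fell 3.22-fold in IFNγ+ (-1.69, SE 0.30, adjusted p = 0.0128) and 2.48-fold in lung IL-4+ cells (-1.31, SE 0.27, adjusted p = 0.0317), the second under the fold limit. These were -1.84 and -1.48 within the wide class, and in the narrow class lung minus LN IL-4+ cells was -1.15. The fall in IFNγ+ cells was lost without either IFNγ+ library (0.215 and 0.119) and fell under the 3-fold limit without LN IL-4+ replicate 2 (-1.54, adjusted p = 0.0345) and with a pseudocount of 1 (-1.50, adjusted p = 0.0105), and that in lung IL-4+ cells without any 1 of the libraries other than lung IL-4+ replicate 1, with adjusted p from 0.0632 to 0.112. The adjoining region over the start itself, at chr4:63860772-63861802, did not share this order. It read 3.66 and 4.37, then 4.33, 4.02 and 4.19, and 3.48 and 3.76, and lung against LN IL-4+ cells differed by 0.16 (SE 0.25, adjusted p = 0.826).

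Tnfsf11 (chr14:78277445-78308043, minus strand), which encodes RANKL, came nearest to a call between the 2 lung populations. Its sum was 122.6 and 98.3 in LN IL-4+, 131.7, 144.6 and 152.7 in lung IL-4+ and 73.8 and 77.6 in IFNγ+ libraries. The 3 populations did not overlap, with IFNγ+ lowest and lung IL-4+ highest. Lung IL-4+ against IFNγ+ cells gave 0.91 (SE 0.13, 1.89-fold, adjusted p = 0.0630), IFNγ+ against LN IL-4+ cells -0.54 (SE 0.14, adjusted p = 0.118) and lung against LN IL-4+ cells 0.38 (SE 0.13, adjusted p = 0.252). Within the wide class they were 0.80, -0.38 and 0.42, and lung minus LN IL-4+ cells was 0.28 in the narrow one. The first passed in 5 of 15 alternatives, with 2 populations at a time (0.0181), the spread class term (0.00351), flanks of 25 kb (0.0457) and without LN IL-4+ replicate 1 (0.0188) or 2 (0.0170). Of the 19 regions, 19 had a higher mean in lung IL-4+ than in IFNγ+ cells and 13 (68.4%) were apart, against 19.4% of all regions apart in this direction. A mean density of at least 5 normalized insertions per kb in any population was reached by 9 of the 19.

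The largest of these differences lay at chr14:78291036-78293422 in an intron, 15814 bp downstream of the start. It read 2.44 and 1.69 in LN IL-4+, 2.43, 3.20 and 3.06 in lung IL-4+ and 0.97 and 1.28 in IFNγ+ libraries. All lung IL-4+ libraries lay above both IFNγ+ libraries, which were the lowest of the 7. The difference of 1.77 (SE 0.39, 3.42-fold, adjusted p = 0.0818) missed the threshold. It was 1.31 within the wide class and passed with voom on the rebuilt counts (1.85, adjusted p = 0.0233). It also passed with 2 populations at a time (1.77, adjusted p = 0.0390), library weights (1.93, adjusted p = 0.000687) and without lung IL-4+ replicate 1 (2.01, adjusted p = 0.0483). Another region, 17752 bp downstream of the start, was called with 2 populations at a time (1.74, adjusted p = 0.0460) and with library weights (1.82, adjusted p = 0.00224). The start region of 3367 bp, the highest per kb of the locus, read 4.02 and 4.00 in LN IL-4+, 3.82, 4.13 and 4.26 in lung IL-4+ and 3.30 and 3.40 in IFNγ+ libraries. It differed by 0.72 between the lung populations (adjusted p = 0.181) and by 0.06 between the IL-4+ populations (adjusted p = 0.936).

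Tnfsf14 (chr17:57189492-57194177, minus strand), which encodes LIGHT, showed no order at the level of its locus. Its sum was 43.5 and 39.4 in LN IL-4+, 50.6, 45.0 and 37.6 in lung IL-4+ and 52.5 and 43.1 in IFNγ+ libraries, all populations overlapping. The log2 fold changes were 0.20 (SE 0.19), 0.09 (SE 0.17) and -0.11 (SE 0.17) for IFNγ+ against LN IL-4+, lung against LN IL-4+ and lung IL-4+ against IFNγ+ cells, with adjusted p = 0.583, 0.871 and 0.709. Over the gene body alone each had the opposite sign. One region between genes was called. It read 1.68 and 1.48 in LN IL-4+, 2.53, 2.57 and 1.61 in lung IL-4+ and 3.70 and 3.36 in IFNγ+ libraries. The IFNγ+ libraries were the highest of the 7 and the IL-4+ populations overlapped. IFNγ+ against LN IL-4+ cells gave 1.95 (SE 0.41, 3.86-fold, adjusted p = 0.0267), and lung IL-4+ against IFNγ+ cells -1.29 (SE 0.37, adjusted p = 0.169). They were, within the wide class, 2.05 and -1.0. Rebuilt counts were 46 to 604, and the call was lost without replicate 1 of the LN IL-4+ cells (0.0569), lung IL-4+ replicate 2 (0.0513) or either IFNγ+ library (0.344 and 0.194). The start region read 4.25 and 4.20, then 4.25, 4.22 and 3.55, and 4.04 and 3.60, with no difference past the test.

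**Figure D4:**
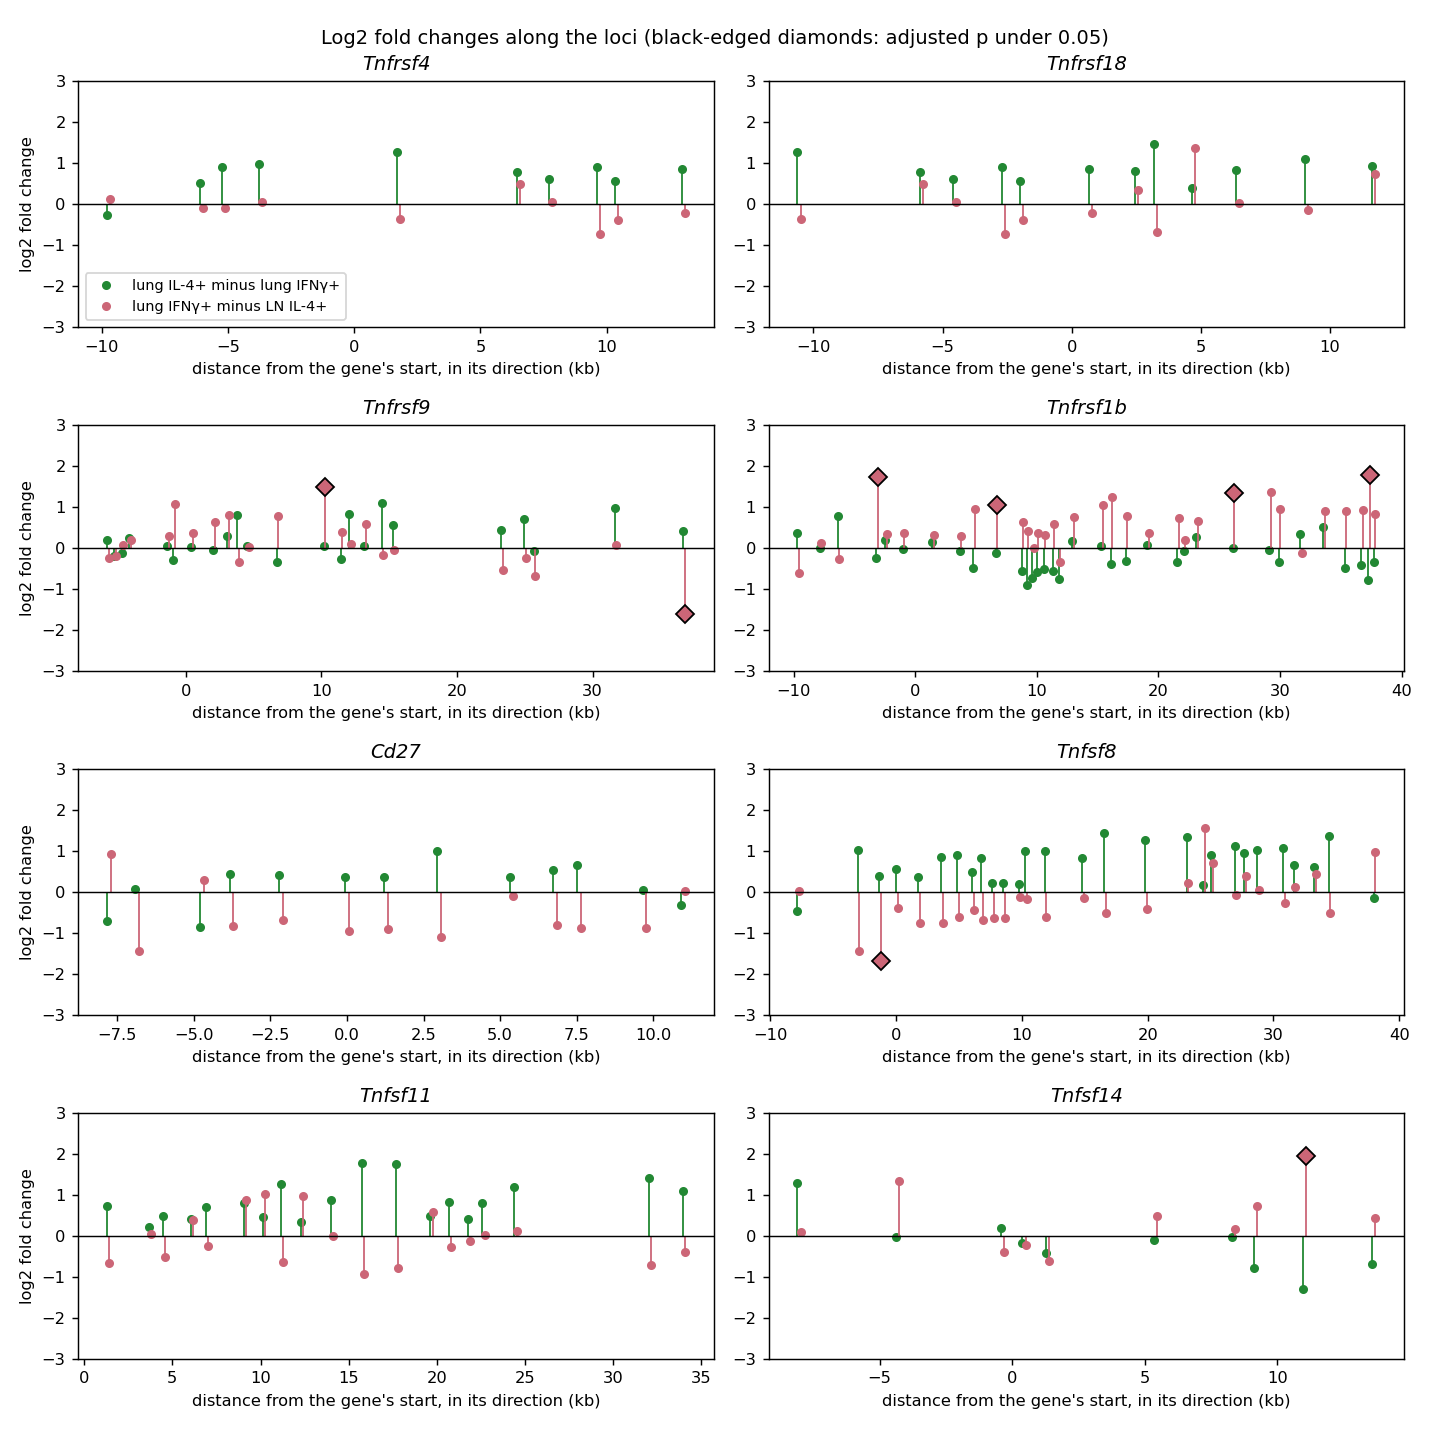
Log2 fold change (vertical axis) of every member region against the distance of its centre from the gene's start (kb, in the direction of the gene), for lung IL-4+ minus lung IFNγ+ (green) and lung IFNγ+ minus LN IL-4+ cells (red), with diamonds where the adjusted p was under 0.05. Green points lie above 0 along the whole of Tnfsf11 and most of Tnfsf8, and red points lie above 0 along most of Tnfrsf1b.

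Over the 7 libraries, the locus sums of the members fell into patterns that can be described by their correlation on the log2 scale, with points that share depth, spread class and normalization. Tnfsf8 and Tnfsf11 had a Pearson r of 0.951, and Tnfrsf9 and Tnfrsf1b of 0.937. With Tnfsf8 and Tnfsf11, Tnfrsf4 had an r of 0.872 and 0.846 and Tnfrsf18 of 0.789 and 0.788, with no shared regions. The r of 0.985 for Tnfrsf4 and Tnfrsf18 includes the 6 regions that they share. Cd27 and Tnfsf14 were like none of the others, with r between -0.479 and 0.555 for Cd27. Among protein-coding genes with at least 3 regions and none in common, the most alike were Nfkb1 (0.993) and Etv3 (0.989) for Tnfrsf18 and Cytip (0.991) and Tg (0.989) for Tnfrsf4. They were Slc11a1 (0.98) and Map6 (0.976) for Tnfrsf9, and Prdm1 (0.997) and Map2k5 (0.987) for Tnfrsf1b. Tnfsf8 was most like Kcnip1 (0.985) and Il4 (0.976), and Tnfsf11 like 2700097O09Rik (0.987) and Tfip11 (0.986). Cd27 was most like Slc37a1 (0.996) and Gnptg (0.995), and Tnfsf14 like Wdr66 (0.968) and Zhx1 (0.961). The Il4 locus, for example, read 133.8 and 106.9 in LN IL-4+, 119.0, 171.6 and 157.1 in lung IL-4+ and 39.6 and 54.4 normalized insertions in IFNγ+ libraries, the order of Tnfsf8 with a larger fall in IFNγ+ cells. These genes were picked as the highest of all genes within those limits over 7 points, so the values of r are a description only.

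The rest of the pathway held further called regions. Of 14 other ligands with 80 regions, 5 regions (6.25%) were called higher in IFNγ+ than in LN IL-4+ cells and 0 lower, against the 2.17% and 0.862% of all regions given above, and the median log2 fold change of the list was 0.48. These were 2 at Tnfsf10, which encodes the death ligand TRAIL, and 3 at Fasl, which encodes the Fas ligand. The intron region 5885 bp downstream of the Tnfsf10 start read 0.80 and 1.25 in LN IL-4+, 2.42, 2.41 and 2.37 in lung IL-4+ and 4.09 and 3.95 in IFNγ+ libraries. Its populations did not overlap, and it was called both for IFNγ+ against LN IL-4+ (3.00, adjusted p = 0.00214) and for lung IL-4+ against IFNγ+ cells (-1.62, adjusted p = 0.0464). The other Tnfsf10 region was high in both lung populations, with 2.33 (adjusted p = 0.00617) for lung and 1.95 (adjusted p = 0.0127) for IFNγ+ against LN IL-4+ cells. The 3 Fasl regions lay outside the gene, with log2 fold changes of 1.96, 2.38 and 1.99 for IFNγ+ against LN IL-4+ cells (adjusted p = 0.0173, 0.0236 and 0.00409).

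Of 20 other receptors, 17 had regions, 121 in all, of which 2 (1.65%) were called higher in IFNγ+ and 1 (0.826%) higher in LN IL-4+ cells, and the list's median was 0.01. Both higher ones lay inside Tnfrsf8, which encodes CD30, the receptor of CD30L. The stronger, in an intron, read 2.15 and 2.68 in LN IL-4+, 2.53, 2.76 and 2.83 in lung IL-4+ and 5.07 and 5.09 in IFNγ+ libraries. Only the IFNγ+ libraries were high, and the region was called against LN IL-4+ (2.66, SE 0.28, adjusted p = 0.00178) and against lung IL-4+ cells (-2.37, SE 0.26, adjusted p = 0.0101). The Tnfsf8 locus of the ligand, described above, was lowest in the same 2 libraries. A region upstream of Tnfrsf14, the receptor of LIGHT, was called lower in the lung than in the lymph node for IL-4+ cells (-1.73, adjusted p = 0.00418). This was 0.826% of the receptor regions, against 0.695% of all regions. In an intron of Tnfrsf19, 1 was called lower in IFNγ+ than in LN IL-4+ cells (-2.63, adjusted p = 0.0194). Called higher in IFNγ+ than in lung IL-4+ cells were 1 ligand region (1.25%) and 1 receptor region (0.826%), against 0.387% of all regions. Of 13 adaptors and signalling proteins with 151 regions, 2 regions were called, both at Traf3, which encodes an adaptor of several of these receptors. They were 1 (0.662%) in each direction between IFNγ+ and LN IL-4+ cells, under the 2.17% and 0.862% of all regions. One in an intron rose in IFNγ+ against LN IL-4+ cells (2.31, adjusted p = 0.00504) and one over an exon fell (-2.46, adjusted p = 0.0361). Leaving out either IFNγ+ library took the called regions of these lists between IFNγ+ and LN IL-4+ cells from 10 to 0 or 1, leaving out LN IL-4+ replicate 1 took them to 4, and leaving out replicate 2 to 17.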

How the data were processed

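ATAC-seq libraries of sorted CD4+ T cells were analysed from 1 table of 113820 regions with a value for each of 7 libraries. The authors trimmed reads, aligned them to GRCm38/mm10 with Bowtie2 2.3.2, marked duplicates, removed mitochondrial and blacklisted reads, called summits in each replicate with MACS2 2.1.1, merged the regions and counted transposase insertions. They normalized these counts with voom of limma 3.38.3 in R 3.5.1 and deposited them as log2 density of normalized insertions per kb, scaled to library size. After multiplying by region length, the sorted values were close to equal in all libraries, as quantile normalization gives. The region lengths ran from 401 to 39098 bp, with a median of 486.5 bp.

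Groups were taken from the labels. Regions were assigned to genes with GENCODE release M21. The deposited log2 values were tested in limma 3.58.1 (R 4.3.3), as a linear model over all 7 libraries in which the prior variance followed the mean level, with p-values adjusted over every region by Benjamini-Hochberg. Calls needed an adjusted p under 0.05 and a change of at least 3-fold. Locus sums were tested in the same way over 17044 protein-coding genes. Counts were rebuilt as ranks of tied values (equal to 8 decimals), and are lower bounds. The scripts were tested on simulated data with 200 changed regions. No 2 libraries of a population agreed within sampling noise (chi-square per degree of freedom 3.62 to 47.0). Named regions were those called, those with the largest difference in each comparison, those at the gene start and that with the highest mean density at each locus, with all others at an adjusted p under 0.05. Members and gene lists were chosen with earlier results of these data known. Alternatives covered the variance model, spread class, library weights, scaling, low values, pseudocount, fold limit, flanks, voom and leaving out each library. Reporter-negative cells were not analysed here, and the sequences of 2 called regions are not reported here. Python 3.11.15 was used for tables (pandas 2.3.3, with numpy 2.4.6), statistics (scipy 1.17.1) and figures (matplotlib 3.10.9).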

Additional observations from a re-analysis of the deposited data

How the results depend on the processing

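With 2 or 3 libraries a population, calls rested on single libraries and on the model of the variance. Of the alternative values of the 16 region results, 150 kept their side of the threshold, 106 lost it and 0 changed sign. Of the alternative values of the 24 locus results, 323 kept it, 22 newly passed and 15 changed sign. The causes were not tested. The share of all regions called is not given under the alternatives. Changes in the member counts, here and above, are therefore not results about the members. For locus sums, the spread class term raised the share of all loci called from 0.0528%, 1.08% and 2.14% to 2.85%, 15.3% and 11.8%.

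The calls of member regions between lung IL-4+ and IFNγ+ cells were 0, and 2 with 2 populations at a time, with library weights or with voom, and 0 to 2 without single libraries. Between lung and LN IL-4+ cells they were 1, and 0 without a variance trend or over gene bodies alone, 5 with a spread class term, 6 with a 2-fold minimum, 8 with no fold minimum and 0 to 3 without single libraries. Between IFNγ+ and LN IL-4+ cells they were 5, and 0 without a variance trend or over gene bodies alone, 2 with a pseudocount of 1, 8 with a 2-fold or no fold minimum and 0 to 7 without single libraries. For the other TNF superfamily and signalling genes, the calls between lung IL-4+ and IFNγ+ cells were 2, and 0 without a variance trend, 15 with weights, 4 with the spread class, 1 with the pseudocount and 0 to 3 without single libraries. Between lung and LN IL-4+ cells they were 2, and 0 without the trend, 4 with the spread class, 5 with a 2-fold or no fold minimum and 1 to 10 without single libraries. Between IFNγ+ and LN IL-4+ cells they were 10, and 4 without the trend or with 2 populations at a time, and 0 to 17 without single libraries. Calls of locus sums, 0 in each comparison, were 1 with 2 populations at a time, 2 with the spread class, 1 with flanks of 25 kb and 0 to 1 without single libraries between lung IL-4+ and IFNγ+ cells. They were 5 with the spread class, 1 over gene bodies and 0 to 2 without single libraries between lung and LN IL-4+ cells, and 4 with the spread class and 0 to 3 without single libraries between IFNγ+ and LN IL-4+ cells.

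Locus sums changed sign with the spread class term, over gene bodies alone, without single libraries or under the replicate block. With the spread class, Tnfrsf4 (IFNγ+ against LN IL-4+) turned to 0.092 and Cd27 (lung IL-4+ against IFNγ+) to -0.15. Over gene bodies, Tnfrsf18 (IFNγ+ against LN IL-4+) turned to -0.16, and Tnfsf14 to 0.12 (lung IL-4+ against IFNγ+), -0.29 (lung against LN IL-4+) and -0.40 (IFNγ+ against LN IL-4+). Without single libraries, Tnfrsf9 (lung IL-4+ against IFNγ+) ran from -0.021 to 0.11, Tnfrsf18 (IFNγ+ against LN IL-4+) from -0.028 to 0.12, Tnfsf14 from -0.25 to 0.030 (lung IL-4+ against IFNγ+) and from -0.011 to 0.20 (lung against LN IL-4+), and Cd27 (lung against LN IL-4+) from -0.56 to 0.21.

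Correlations of same-numbered deviations from the population means ran from -0.542 to 0.057. Same-numbered LN and lung IL-4+ libraries lie in opposite spread classes, so these values cannot show whether the replicate numbers pair the samples. With the replicate block, the member regions called were 0 in each of the 3 comparisons, and the other genes' calls were 0, 0 and 3. The Tnfsf14 sum (lung IL-4+ against IFNγ+) turned to 0.0034 under the block.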
